A study of Drosophila melanogaster with 2 samples.

Results

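The genes described here are 9 nuclear receptor genes of Drosophila melanogaster that belong to, or are linked to, the response to the steroid hormone ecdysone: EcR, usp, Eip75B, Eip78C, ftz-f1, Hr38, Hr39, Hr4 and Hnf4. They were taken by name, with earlier results of these data known, and are 9 of 13945 protein-coding genes on the major chromosome arms. The data were peak lists from chromatin immunoprecipitation and sequencing (ChIP-seq) of Fer1, a basic helix-loop-helix transcription factor, in whole embryos of mixed sex collected at 6 to 24 h. Every embryo carried a stable transgene encoding Fer1 with GFP at its C-terminus, and chromatin was precipitated with an antibody against GFP. The series has 1 group of 2 biological replicates. The control library named in the labels was not analysed here, no label names the regulatory sequence that drives the transgene, and no contrast between conditions was possible. Since chromatin came from whole embryos, a site bound in few cells and a site bound weakly in many cells cannot be told apart.

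Ecdysone acts through a pair of nuclear receptors, the ligand-binding EcR and its partner Ultraspiracle (usp), which bind DNA together. The hormone-bound complex switches on early genes, several of which encode further nuclear receptors that repress or activate later genes, so that a pulse of hormone becomes an ordered cascade. Such pulses time molting and metamorphosis, and a pulse in the middle of embryogenesis is needed for morphogenesis of the embryo. Many of these genes span long introns and use alternative promoters that give protein isoforms with different activities.

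Summits were dense at these genes as a group, but unevenly so. Of the 7329 peaks past the authors' reproducibility threshold (irreproducible discovery rate, IDR), here called thresholded peaks, 62 had their summit in one of the 9 genes or within 5 kb of it, in 61 distinct intervals. These windows made up 0.389% of the genome and held 0.846% of the thresholded summits, which is 1.19 summits per 10 kb against 0.547 over the genome. The genome value counts whole chromosome arms, with stretches that hold no peak. On 3L the last peak of any list ended at 22890471 of 28110227 bp. The windows of all coding genes over 20 kb together had 0.51 per 10 kb. The median gene of the 9 had 0.926 summits per 10 kb, against a median of 0.736 for all coding genes and 0.395 for the 1013 coding genes over 20 kb. All 9 genes had at least 1 summit, where 58.8% of coding genes did. All but usp are over 20 kb long, however. Of the coding genes over 20 kb, 63.1% were at least as dense as Hr38, so at least that share had a summit. Eip75B had 16, Hr4 15 and ftz-f1 13, EcR had 7, Hr39 4, Hnf4 3, Eip78C 2, and usp and Hr38 1 each. A count of 10 or more was thus found at 3 of the 9 genes, while 5.73% of the coding genes over 20 kb reached it. Long genes have more room for summits, and Eip75B is 113744 bp long. Relative to length with 5 kb on each side, ftz-f1 (2.14 per 10 kb) and Hr4 (1.97) were the densest of the 9. Of coding genes over 20 kb, 3.46% and 5.13% were at least as dense. At the other end Hr38 had 0.243 and Eip78C 0.401 per 10 kb, both below the genome value. In the gene span alone usp was densest with 2.85 per 10 kb, from 1 summit in 3514 bp. There ftz-f1 had 2.17 and Hr4 1.67.

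**Figure D1:**
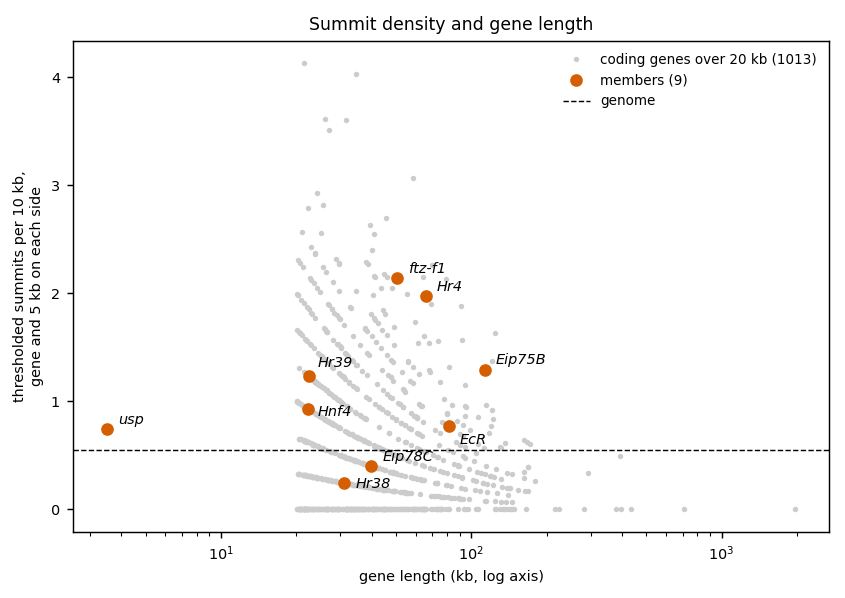
Thresholded summits per 10 kb (vertical axis, each gene with 5 kb on each side) against gene length (horizontal log axis, kb) for the 9 genes (orange) and the 1013 coding genes over 20 kb (grey); the dashed line is the genome value of 0.547. ftz-f1 and Hr4 lie highest of the 9 at 2.14 and 1.97, and Hr38 lowest at 0.243.

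The summits had about the same median strength as the list. Their signal values, which are the authors' own measure of peak height and are used only within a list, ran from 110.6 to 890.6 with a median of 181.6, and the whole thresholded list ran from 110 to 4431 with a median of 182.1. The strongest of them ranked 231 of 7329. Of the 62, 31 were above that list median. Signal values above 400 were reached by 8 summits in 4 genes, namely Eip75B and Hr4 with 3 each and EcR and ftz-f1 with 1 each. The lowest of these 8 ranked 932 of 7329, so peaks this strong were not rare in the list. Among the 732 highest peaks of the list were 5 of the 62. Most summits lay away from promoters. Alternative promoters were taken as annotated transcript starts joined where they lie at most 100 bp apart, which gave 27 promoters for the 9 genes. An own promoter was within 1 kb for 14 of them (22.6%, 95% Clopper-Pearson interval 12.9 to 35.0), while 9 lay within 1 kb of the start of another gene only, 37 lay elsewhere inside the gene and 2 in the flank. Counting the starts of any gene, 23 of 62 (37.1%, interval 25.2 to 50.3) lay within 1 kb. That share was 62.2% over the whole thresholded list and 47.5% among the summits at coding genes over 20 kb. By annotation 42 summits were intronic, 6 lay in 5' UTRs, 1 in a 3' UTR and 0 in a coding exon. These classes were not counted over the whole list, so the counts do not set the 9 genes apart from it.

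**Figure D2:**
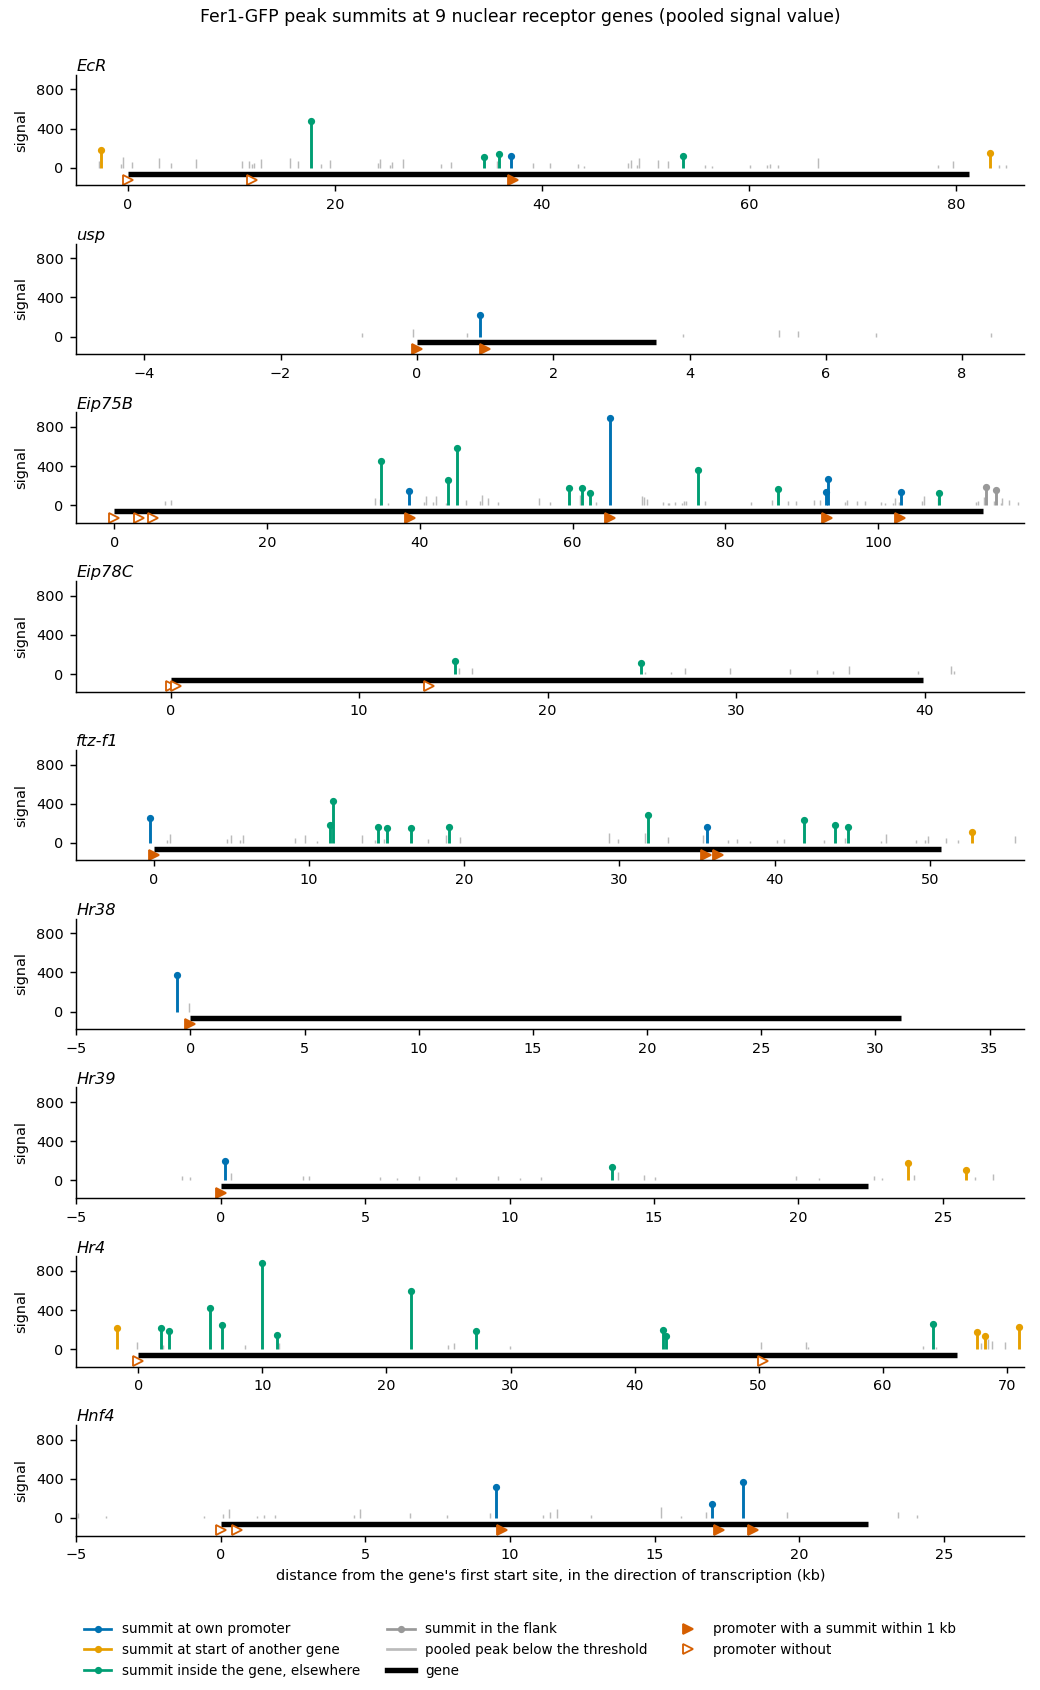
Summits along each gene, with distance from the gene's 5'-most start in kb on the horizontal axis and the pooled signal value on the vertical axis; coloured stems are thresholded summits by position, grey stems are weaker pooled peaks, black bars are genes, and triangles are promoters, filled where a thresholded summit lay within 1 kb. Summits crowd in the downstream part of Eip75B and are spread over Hr4, while the body of Hr38 carries none.

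Promoter summits were found at 7 of the 9 genes and were missing at Eip78C and Hr4. Among all coding genes 33.1% had a summit within 1 kb of a promoter, but the share was 49.8% for coding genes over 20 kb and 54.3% for those with 2 or more promoters, features that most of the 9 share. Windows of 500 bp left 6 of the 9 genes, without Hr38, against 29.2% of coding genes. Windows of 200 bp left 5, without Hnf4 as well, against 23.3%. At the level of single promoters, 15 of 27 had a summit within 1 kb, against 33.5% of the promoters of coding genes. With windows of 500 bp the count was 12, against 27.6% of all promoters, and with 200 bp it was 8, against 19.7%. Neighbouring promoters of 1 gene can share a summit, as at usp, ftz-f1 and Hnf4, so promoters are not independent. The 14 promoter summits lay mostly upstream, 9 before and 5 after the nearest own start, and their median signal value was 211.1. It was 184.0 for the 37 summits elsewhere inside the genes.

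**Figure D3:**
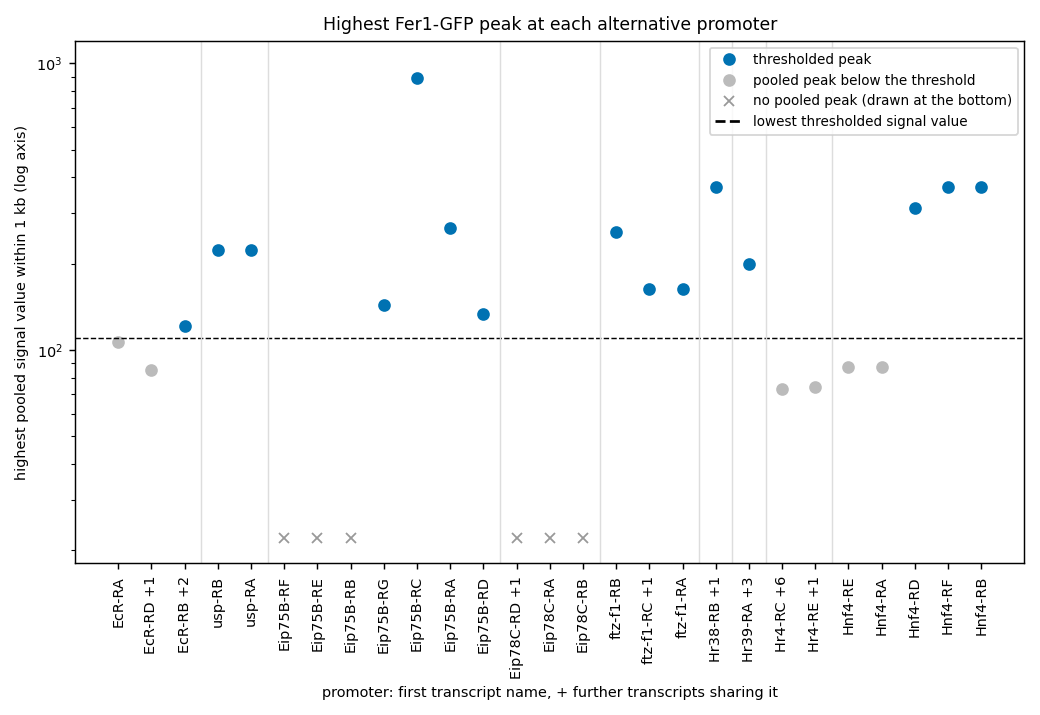
The highest pooled signal value (vertical log axis) within 1 kb of each of the 27 alternative promoters, in order along each gene; blue points are thresholded peaks, grey points are pooled peaks below the threshold, crosses mark promoters with no pooled peak, and the dashed line is the lowest thresholded signal value. Within Eip75B the promoters range from none, at the 3 upstream promoters, to 890.6 at Eip75B-RC.

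EcR encodes the hormone-binding receptor. The gene (FBgn0000546, chr2R:6087873-6169087 on dm6, minus strand) has 6 transcripts from 3 promoters. Its strongest summit was far from any of them, in an intron at position 6151411. It lay 5718 bp downstream of the start shared by EcR-RD and EcR-RE, and 1265 bp downstream of the start of tRNA:Asn-GTT-1-1. That summit had a signal value of 480.1 (rank 728 of the list), with 286.4 in replicate 1 (rank 747) and 186.8 in replicate 2 (rank 813). The promoter of EcR-RB, EcR-RC and EcR-RG carried a weak summit 119 bp upstream (120.8), which ranked 9991 in replicate 1 and 4006 in replicate 2. The highest peaks of replicate 2 alone gave EcR 2 promoters with a summit. At the EcR-RA and EcR-RD promoters the highest pooled peaks, of 106.6 and 85.2, fell below the threshold. The window also holds 16 tRNA genes, and tRNA:Arg-ACG-1-4 and tRNA:Lys-CTT-1-5 had a thresholded summit within 1 kb. That summit (177.3) stood 19 bp upstream of tRNA:Arg-ACG-1-4 and 2581 bp upstream of EcR-RA. Another of the 7 lay 159 bp upstream of the neighbouring gene Ars2 (151.4).

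usp encodes the partner of EcR, the fly counterpart of the mammalian retinoid X receptors. The gene is short, 3514 bp on the minus strand of X (FBgn0003964, chrX:2038798-2042311), and carried 1 summit, 69 bp upstream of usp-RA. Its signal value was 222.7 (rank 2698), with 115.3 in replicate 1 (rank 3437) and 103.1 in replicate 2 (rank 2312). The same summit lay 930 bp downstream of usp-RB, whose start is shared by Actn, and 487 bp upstream of CG4313 on the other strand, so these genes cannot be told apart as its target. The highest of the weaker pooled peaks in the window had a signal value of 78.6.

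Eip75B is an early ecdysone-induced gene whose protein binds heme and represses transcription. Its 7 transcripts each have a promoter of their own, spread over 102882 bp (FBgn0000568, chr3L:17950953-18064696, minus strand), and the summits divided these promoters sharply. The 3 upstream promoters, of Eip75B-RF, RE and RB, had no thresholded and no pooled peak within 1 kb, and replicate 1 alone had a weak one at RE (32.5, rank 16419). The 4 downstream promoters all had a thresholded summit within 200 bp. Eip75B-RC had the highest, 23 bp downstream of its start, with a signal value of 890.6 (rank 231). In replicate 1 it reached 551.0 (rank 212) and in replicate 2 328.6 (rank 287). Eip75B-RA had a summit 173 bp downstream (266.9) and one 27 bp upstream (132.3), which overlap the same peak in each replicate. The summit 94 bp upstream of Eip75B-RG (143.4) was stronger in replicate 2, at rank 3138, than in replicate 1, at rank 9502. Eip75B-RD had a summit 73 bp downstream of its start (133.2), at rank 4985 in replicate 1 and 8101 in replicate 2. From the upstream edge of the window onward, 39.9 kb passed without a thresholded summit, and 26.7 kb of that without any pooled peak.

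The remaining 11 Eip75B summits were 9 in introns and 2 past the end of the gene. The highest of them lay 6221 bp downstream of Eip75B-RG with a signal value of 581.7 (rank 513), with 332.8 in replicate 1 (rank 557) and 241.0 in replicate 2 (rank 512). A further summit 3754 bp upstream of Eip75B-RG had 453.6 (rank 830), and one 11486 bp downstream of Eip75B-RC had 358.3 (rank 1240). The strongest intronic window is shown because it holds the binding site type of the tagged protein's family, and a window past the gene's end because it holds AGGTCA, the core site that nuclear receptors recognise. Both are 101 bp centred on the summit, read on the plus strand of the Release 6 genome. Capitals mark E-boxes, the hexamer CANNTG bound by basic helix-loop-helix proteins, and in the lower line also AGGTCA.
Eip75B intron, chr3L:18019761-18019861: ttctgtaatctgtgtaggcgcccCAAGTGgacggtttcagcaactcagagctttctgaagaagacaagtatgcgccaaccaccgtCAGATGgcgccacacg
Eip75B downstream flank, chr3L:17950536-17950636: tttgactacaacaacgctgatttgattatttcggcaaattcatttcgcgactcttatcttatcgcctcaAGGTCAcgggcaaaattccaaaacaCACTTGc

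Eip78C encodes a close relative of the Eip75B protein. The gene (FBgn0004865, chr3L:21226609-21266503, plus strand) had 2 thresholded summits, both intronic and both in the weaker part of the list. They lay 1368 bp and 11205 bp downstream of Eip78C-RB, with signal values of 136.9 (rank 5477) and 117.2 (rank 6757). The higher one had 79.9 in replicate 1 (rank 5900) and 50.6 in replicate 2 (rank 6882), and the highest peaks of replicate 2 alone left 1 summit. None of the 3 promoters had a pooled peak within 1 kb, and no pooled peak lay in the 20.1 kb from the upstream window edge to the higher summit.

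ftz-f1 encodes an orphan receptor whose early form is the cofactor of the pair-rule protein Fushi tarazu and whose later form prepares tissues for the next hormone pulse. The gene (FBgn0001078, chr3L:18750607-18801309, minus strand) had 13 summits, 10 of them in introns away from its promoters. The highest lay in an intron, 11541 bp downstream of ftz-f1-RB, with a signal value of 428.7 (rank 919). It ranked higher in replicate 2 (226.4, rank 582) than in replicate 1 (208.9, rank 1306). A companion summit of the same interval, 11341 bp downstream (184.0), overlaps the same peak in each replicate. The upstream promoter of ftz-f1-RB had a summit 237 bp before its start (258.0, rank 2128), which also lies 234 bp before the start of lncRNA:CR45939. The replicates gave 141.2 and 116.8 there. The promoter of ftz-f1-RC and RD had one 56 bp downstream (163.1, rank 4325; 117.7 and 51.5 in the replicates), which lies 732 bp upstream of ftz-f1-RA and is the same summit counted for both. The second highest intronic summit, 3742 bp upstream of ftz-f1-RC, had 279.5 (rank 1858), and the others ranged from 152.7 to 233.5. One summit (110.7), 106 bp upstream of Atg3, lay past the end of ftz-f1. It was the second lowest of all 62 and close to the threshold, just as Eip75B had a peak of 109.7 just outside it.

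The ftz-f1-RB promoter window is shown for its 3 E-boxes and its GAGAG, the core of the site bound by the GAGA factor. The intronic window 7551 bp downstream of ftz-f1-RA (signal value 185.9) is shown as the other of the 2 member windows with AGGTCA. Both are read on the plus strand of Release 6, with E-boxes, GAGAG and AGGTCA in capitals.
ftz-f1-RB promoter, chr3L:18801496-18801596: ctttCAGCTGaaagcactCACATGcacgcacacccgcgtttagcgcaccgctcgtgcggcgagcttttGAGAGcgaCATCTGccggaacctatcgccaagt
ftz-f1 intron, chr3L:18757355-18757455: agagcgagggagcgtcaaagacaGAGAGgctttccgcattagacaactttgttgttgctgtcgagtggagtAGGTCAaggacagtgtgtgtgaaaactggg

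Hr39 encodes a receptor that binds the same kind of site as Ftz-f1 and acts in the female reproductive glands. The gene (FBgn0261239, chr2L:21237250-21259675, plus strand) had 1 promoter for all 4 transcripts. It carried a summit 146 bp downstream of the start (199.4, rank 3188), with 128.0 in replicate 1 (rank 2909) and 85.9 in replicate 2 (rank 3110). An intronic summit had a signal value of 141.2, at rank 4475 in replicate 1 and 10384 in replicate 2. The other 2 lay at the starts of neighbours, 127 bp upstream of l(2)k14505 (182.5) and 115 bp downstream of the start of CG8671 (110.6, the lowest of the 62). The count of 4 was 2 in the highest peaks of replicate 2 alone.

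Hr4 encodes a repressor, related to the mammalian germ cell nuclear factor, that limits early gene activity and ecdysone synthesis in later stages. The gene (FBgn0264562, chrX:1941940-2007956, plus strand) had 11 summits inside the gene and none within 1 kb of its promoters. The promoter of 7 transcripts and that of Hr4-RE and RF had pooled peaks of only 73.2 (rank 11550) and 74.3 (rank 11366). In the first 22 kb after the upstream start, a stretch that ends just past one of them, lay 7 summits. Density was 1.99 per 10 kb between the 2 promoters and 1.94 from the second to the window edge. The highest, 9972 bp from the start, had a signal value of 876.9 (rank 238), with 514.9 in replicate 1 (rank 240) and 351.8 in replicate 2 (rank 246). The next, 21983 bp from the start, had 597.2 (rank 497), with 360.4 (rank 482) and 233.4 (rank 551). A summit 5803 bp from the start had 425.5 (rank 932), and one 6753 bp from the start had 251.9 (rank 2213). The summit of 425.5 ranked 913 in replicate 1 and 993 in replicate 2. In the 3' UTR a summit had 257.6 (rank 2137). The 4 others of the window lay at starts of other genes, with signal values from 139.3 to 222.9. They lay 119 bp upstream of CG3587, 160 bp upstream of PIG-K, 188 bp upstream of a start of east and 154 bp upstream of mir-2496.

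The 3 strongest Hr4 windows are shown because they differ in E-box content although all are strong. The highest 2 hold no E-box, while the third holds 4, of which 3 follow each other without a gap and the last stands apart. Of all thresholded windows 0.341% (25) held 4 or more. The sequences are on the plus strand of the Release 6 assembly, with E-boxes in capitals.
Hr4 intron, signal value 876.9, chrX:1951862-1951962: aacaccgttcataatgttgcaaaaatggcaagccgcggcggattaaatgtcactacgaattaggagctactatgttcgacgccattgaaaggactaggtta
Hr4 intron, signal value 597.2, chrX:1963873-1963973: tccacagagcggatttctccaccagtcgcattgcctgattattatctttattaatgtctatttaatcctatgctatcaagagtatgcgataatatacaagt
Hr4 intron, signal value 425.5, chrX:1947693-1947793: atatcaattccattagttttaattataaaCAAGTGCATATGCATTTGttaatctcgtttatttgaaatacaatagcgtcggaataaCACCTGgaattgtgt

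Hr38 belongs to the NGFI-B group of nuclear receptors, can pair with Usp, and is known in flies as an activity-induced gene of neurons. It had a single summit, 591 bp upstream of the start shared by both transcripts (FBgn0014859, chr2L:20683462-20714588, minus strand). The signal value was 371.7 (rank 1162), with 230.9 in replicate 1 (rank 1107) and 140.2 in replicate 2 (rank 1371), the second highest promoter summit of the 9 genes. Beyond 46 bp upstream of the start, no pooled peak lay in the 36.2 kb that remained of the window, although pooled peaks had a density of 2.24 per 10 kb in the genome. With the gene span alone as the window, Hr38 had 0 summits.

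Hnf4 encodes the fly counterpart of hepatocyte nuclear factor of the same name, which drives lipid use and acts in midgut, fat body and Malpighian tubules. All 3 of its thresholded summits stood upstream of one of the internal promoters (FBgn0004914, chr2L:8687226-8709611, minus strand). They lay 202 bp upstream of Hnf4-RD (311.8, rank 1546), 241 bp upstream of Hnf4-RF (142.4, rank 5218) and 333 bp upstream of Hnf4-RB (369.7, rank 1181). The Hnf4-RB summit had 216.9 in replicate 1 (rank 1217) and 146.1 in replicate 2 (rank 1286). At Hnf4-RD the values were 198.4 (rank 1434) and 141.6 (rank 1351), so the peaks overlapping these summits ranked high in each replicate. None of the 3 summits, however, matched a peak of both replicates over 50% of both intervals. The Hnf4-RD summit had such a match in replicate 1 only, and those of Hnf4-RF and Hnf4-RB in neither. With 1 bp of overlap all 3 had a match in both. At the 2 promoters farthest upstream, Hnf4-RE and Hnf4-RA, the highest pooled peak had 87.5 (rank 9539). The count of 3 became 5 with the highest peaks of replicate 1 alone. Promoter windows of Hr38 and Hnf4 are shown as the strongest promoter windows outside UTRs, with the single E-box of Hr38 in capitals; Hnf4-RB holds no searched motif.
Hr38 promoter, chr2L:20715129-20715229: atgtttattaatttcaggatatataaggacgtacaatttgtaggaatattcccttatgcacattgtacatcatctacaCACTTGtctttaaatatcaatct
Hnf4-RB promoter, chr2L:8691492-8691592: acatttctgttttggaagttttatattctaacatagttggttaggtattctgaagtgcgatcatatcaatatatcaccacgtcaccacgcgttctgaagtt

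**Figure D4:**
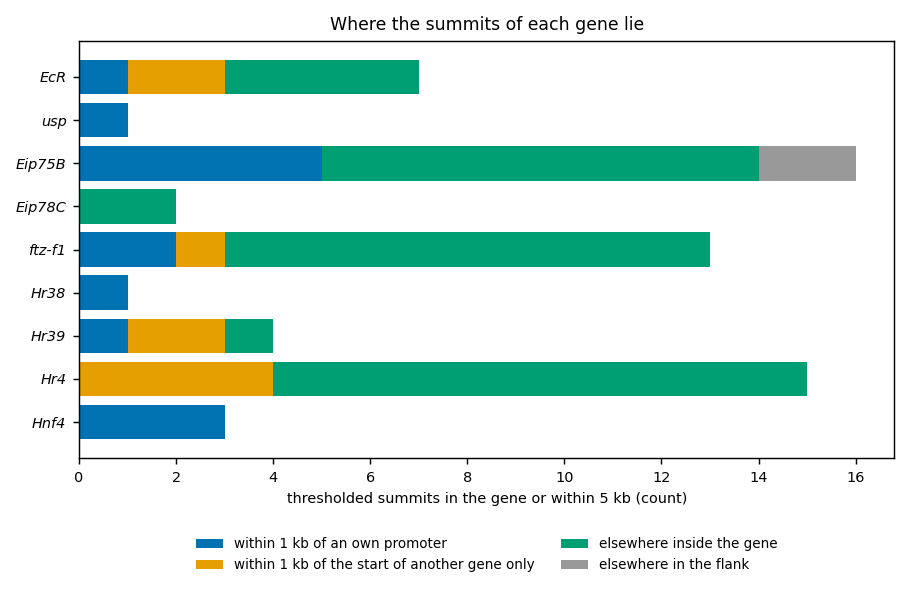
Number of thresholded summits in each gene or within 5 kb (horizontal axis) by position, with bars stacked by class. All summits of usp, Hr38 and Hnf4 lie at their own promoters, and none of the 15 of Hr4 and the 2 of Eip78C do.

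Replicate values are those of the highest overlapping peak in that replicate. A match with one of the 7329 highest peaks of each replicate, over 50% of both intervals, was found in both replicates for 33 of the 62 summits, where 54.1% of all thresholded peaks had one. Another 14 matched in replicate 1 only, 6 in replicate 2 only and 9 in neither. With 1 bp of overlap 49 matched in both, and in the full replicate lists all 62 overlapped a peak. The share of all thresholded peaks under these looser rules was not counted, so these counts add no sign of better agreement than elsewhere. The 8 summits above 400 all matched, and none ranked below 1306 in replicate 1 or 1080 in replicate 2. High ranks are nearly given for them, since the pooled signal that picked them comes from the same replicates. Among these 8 the ranks differed most at the ftz-f1 summit of 428.7, with 1306 in replicate 1 and 582 in replicate 2. To compare the lists, each signal value was divided by the median of the 7329 highest of its replicate, 111 in replicate 1 and 77.6 in replicate 2. The ratio of replicate 1 to replicate 2 on this scale had a median of 1.08 and ranged from 0.45 to 2.67. It was within 1.5 times for 25 of the 31 summits above the members' median and for 20 of the 31 below. Peaks outside the threshold were dense at these genes too. Of the 30000 pooled peaks 281 had their summit in the windows, 219 of them below the threshold. The 219 amount to 4.2 per 10 kb, against 1.69 for such peaks over the genome, again counted over whole arms. The windows held 1.15% of the pooled peaks ranked 7330 to 15000 and 0.873% of those ranked 15001 to 30000. Of the 12 promoters without a thresholded summit 6 had a pooled peak within 1 kb, with signal values from 73.2 to 106.6, and 6 had none. Read totals were not used here, so the depth of each library is unknown.

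**Figure D5:**
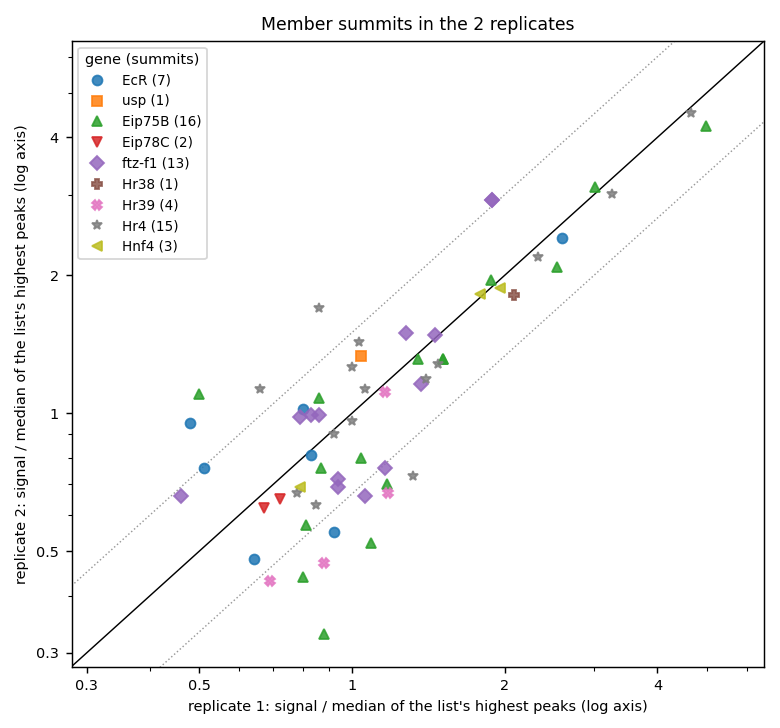
Signal value of each of the 62 summits in replicate 1 (horizontal) and replicate 2 (vertical), each divided by the median of its list's 7329 highest peaks, on log axes; the solid line is equality and the dotted lines 1.5 times either way. Strong summits of Eip75B, Hr4 and EcR lie close to equality, the strongest of ftz-f1 lies just above the upper dotted line, and scatter grows toward low values.

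E-boxes were present at a minority of the summits, as in the list as a whole. Within 50 bp of the summit, 26 of 62 windows held a CANNTG on either strand (41.9%, interval 29.5 to 55.2), against 37.8% of all thresholded windows. At least 3 E-boxes were found in 4 member windows (6.45%), 3 in Hr4 and 1 at ftz-f1-RB, against 1.73% of all. Of the 8 summits above 400, 3 held one. The forms CAGATG (7 windows, 11.3%, against 3.25% of all) and CAAGTG (7, 11.3%, against 5.46%) were the most frequent, with each letter string searched on both strands. Their intervals, 4.66 to 21.9 for both, cover counting error over summits of only 9 loci, and the forms were singled out after their values were seen. E-boxes stood in 17 of the 37 windows elsewhere inside the genes, in 5 of the 14 at own promoters and in 3 of the 9 at other starts. GAGAG was in 14 windows (22.6%, against 12.9% of all), TTCCCA, a part of the composite site of the mammalian Fer1 relative PTF1A, in 2 (3.23%, against 5.01% of all), AGGTCA in 2 (3.23%, against 1.66%) and TATCGATA in 0 (against 1.80%). The member windows were also richer in G and C, with a median of 41.1% against 35.6% for all thresholded windows, and the part of base content in these shares was not tested.

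Other genes of the ecdysone pathway had promoter summits to differing degrees, and these shares are read against the 33.1% of all coding genes. Of 12 other nuclear receptor genes 5 had one (41.7%), with the highest at Hr96, a regulator of lipid balance (665.5), Hr51, which shapes neurons of the mushroom body (549.4), Hr78 (495.9) and ERR, a regulator of glycolysis (244.7). Of 12 further ecdysone-response genes found by name 4 had one (33.3%), at Eip63F-1 (593.0), Eip63E (238.7), Kr-h1 (199.9) and Cth, listed as Eip55E (132.2). The early genes br and Eip74EF, which encode transcription factors, had 0 at 7 and 3 promoters. In the gene or within 5 kb, br had 1 thresholded summit and Eip74EF 6. Among 11 genes of ecdysteroid synthesis, uptake and turnover 1 had a promoter summit (9.09%), the zinc finger gene mld (225.6), and with the highest peaks of replicate 1 alone 3 did. Among 8 cofactors 6 had one (75%), led by gce, a juvenile hormone receptor (1280.6), tai, a coactivator of EcR (468.7), Bap60 of the Brahma remodelling complex (252.8) and trr, a histone methyltransferase that binds EcR (189.7). With a promoter window of 200 bp the cofactor count was 3, and 23.3% of all coding genes then had a summit. In the gene or within 5 kb, a summit was found at 7 of the 12 other receptors and 10 of the 12 response genes. The same held for 5 of the 11 genes of synthesis, uptake and turnover and 7 of the 8 cofactors, where 58.8% of coding genes had one. In the windows of the 9 genes, 12 of the 28 other coding genes that start there had a summit within 1 kb (42.9%).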

How the data were processed

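The deposited files were peak lists on the build dm6, deposited for each of 2 biological replicates, for the pooled replicates and past an IDR threshold. The dm3 lists were not used. Aligner, peak caller and IDR threshold were not given in the sources used here. As deposited by the authors, each peak has a signal value and a −log10 q value, and the −log10 q tops out at 4.29 for all 7329 thresholded peaks. Peaks were therefore ranked by signal. The thresholded peaks equal the 7329 pooled peaks of highest signal.

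Summits were set at the start plus the summit offset, 1-based, and placed on genes of Ensembl release 115 with transposable elements left out. Sequence came from the RefSeq copy of Release 6, and all peaks lay within its chromosome lengths. Motifs were searched within 50 bp of summits. The tools were Python 3.11.15, pandas 2.3.3, numpy 2.4.6, matplotlib 3.10.9 and scipy 1.17.1. No test was made, since 1 group gives no contrast and members are not samples, and intervals cover counting error only. The genes and lists were chosen with earlier results of these data known. Named were the highest summit of each gene, all its promoter summits, some of the neighbours whose starts are nearest to a summit, and the 4 highest genes of each list. Other summits, neighbours and pathway genes named were chosen after their values were seen. Of the pathway symbols, Eip71CD and Eip55E matched through synonyms, and phm, EcI and Eip63F-2 were left out because they matched several genes or none. The code was tested on simulated data, where 200 of 200 planted promoter summits and 70 of 70 planted E-boxes were found.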

Additional observations from a re-analysis of the deposited data

How the results depend on the processing

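No paired analysis was possible because there is 1 group and no contrast. With only the highest 3664 of the 7329 thresholded peaks the count of summits was 31 in place of 62, as the shorter list alone would give. Promoter windows of 200 bp gave 8 promoters in place of 15, where the share of all promoters was 19.7% in place of 33.5%. E-boxes were counted in 12 member windows with 25 bp to each side, in place of 26, 19.4% against 20% of all windows. The other 31 alternative values for the totals were within 1.5 times of the main count or within the interval of the main share, and of those for single genes and lists 61 were and 13 were not. Using 1 replicate's highest peaks alone gave from 55 (without replicate 1) to 64 (without replicate 2) summits, 7 genes with a promoter summit in both cases, 14 to 15 promoters, 22 to 28 windows with an E-box, a share at own promoters of 21.9% to 23.6%, and 16 to 17 pathway genes with a promoter summit. Depth is unknown, so a missing peak may lie under the detection limit, and the pooled list ends at a signal value of 21.8.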
